A study of Mus musculus with 12 samples.

Results

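Immediate early genes are the genes a cell transcribes within minutes of a stimulus, without first making new protein. The 10 described here were found in the deposited table by their symbols, out of 27179 genes in all: Fos, Fosb and Fosl1 of the FOS family, Jun and Junb of the JUN family, Atf3, Egr1, Ier2, Ier3 and Dusp1. RNA was sequenced from full-thickness mouse colon in 12 libraries. The 7 ablated libraries came from BAF53b-Cre::R26-iDTR mice, in which Cre under the promoter of a neuronal chromatin gene switches on a diphtheria toxin receptor held at the Rosa26 locus. The 5 control libraries came from R26-iDTR littermates labelled Cre-negative, which carry the receptor allele without Cre. All of these mice, controls too, underwent laparotomy and an injection of 4 µL of diphtheria toxin at 0.33 ng/µL with 10% India ink into the muscle wall of the colon. All were killed with CO2, and each colon was opened, pinned and dissected at the inked site before freezing. The labels give neither the ages of the mice, nor the time from toxin to dissection, nor the time from death to freezing. The labels do not say that each library is a different mouse, and the p-values below then describe variation among libraries that may be technical.

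The proteins of these genes act together. FOS and JUN family members pair through their leucine zippers to form AP-1, a transcription factor, and ATF3 belongs to the same bZIP class and often acts as a repressor. EGR1 is a zinc finger factor induced by growth factors and stretch. IER2 and IER3 are short-lived nuclear and stress-response proteins, and DUSP1 is a phosphatase that switches off the MAP kinases which induce the whole set. In gut, the set responds to injury, mechanical load and handling of the tissue, and in neurons it responds to firing.

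Several kinds of DNA element are known to carry this induction: the serum response element with its CArG box, the cAMP response element (CRE), and the AP-1 site itself. RefSeq (GRCm38.p6) gave a promoter window, 250 bases before to 50 after the start, for 7 of the 10 genes; Fosl1, Egr1 and Ier2 had no entry. The CRE core TGACGT, searched on both strands, lay in the windows of Fos, Atf3 and Dusp1, and 7.51% of all 32851 windows of that length hold it. These 3 windows are shown because they share that core, which the capitals mark; the core was picked after the sequences had been read. The Fos window is chr12:85473640-85473939 on the plus strand, the Atf3 window chr1:191183284-191183583 on the minus strand, and the Dusp1 window chr17:26508423-26508722 on the minus strand.
Fos: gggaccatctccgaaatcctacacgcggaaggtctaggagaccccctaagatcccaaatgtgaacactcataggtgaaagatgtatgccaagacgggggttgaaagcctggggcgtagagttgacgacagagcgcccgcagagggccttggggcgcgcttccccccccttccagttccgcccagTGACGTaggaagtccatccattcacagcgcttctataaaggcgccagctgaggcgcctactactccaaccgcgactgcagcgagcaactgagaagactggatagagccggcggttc
Atf3: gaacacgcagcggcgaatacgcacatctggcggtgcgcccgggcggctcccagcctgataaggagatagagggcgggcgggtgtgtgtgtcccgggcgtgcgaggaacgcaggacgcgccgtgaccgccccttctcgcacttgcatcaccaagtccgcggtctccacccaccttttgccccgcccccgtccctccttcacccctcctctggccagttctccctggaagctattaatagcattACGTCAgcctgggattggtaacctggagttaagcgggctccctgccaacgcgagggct
Dusp1: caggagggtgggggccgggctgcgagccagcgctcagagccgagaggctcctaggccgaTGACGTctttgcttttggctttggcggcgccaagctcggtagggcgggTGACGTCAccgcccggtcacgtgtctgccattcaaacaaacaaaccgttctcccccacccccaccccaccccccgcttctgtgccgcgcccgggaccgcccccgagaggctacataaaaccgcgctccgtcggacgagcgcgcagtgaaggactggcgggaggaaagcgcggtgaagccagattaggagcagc
In Fos the core lay 66 to 61 bases before the start, followed by TATAAA, the letters of a TATA box (searched on the strand of the gene only), at 33 to 28 bases before it. In Atf3 it lay 8 to 3 bases before the start, on the opposite strand. Dusp1 held it at 191 to 186 bases before the start, and again within a full CRE (TGACGTCA) at 143 to 136 bases, where the cores of both strands overlap. A full CRE is found in 1.79% of all windows. The Fosb window held an EGR site (GCGNGGGCG, both strands, present in 5.55% of windows). The Junb window held TATAAA (8.32% of windows), with its first base on the annotated start of the gene and not before it as in Fos. None of the 7 windows held a CArG box (searched by its consensus, both strands) or an AP-1 site (TGANTCA). Of all windows, 1.63% hold the first and 7.81% the second. These letters were not looked for outside the windows, nor in Fosl1, Egr1 or Ier2. In GENCODE M21 coordinates (GRCm38, the mm10 of the files), 6 further gene bodies are Fosb at chr7:19302696-19310051 (minus strand), Fosl1 at chr19:5447547-5455946 (plus strand), Jun at chr4:95049034-95052222 (minus strand), Junb at chr8:84974484-84978718 (minus strand), Ier2 at chr8:84661331-84662852 (minus strand) and Ier3 at chr17:35821684-35822923 (plus strand), all protein coding.

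Levels below are TPM, read counts scaled to gene length and to the library's total, as the authors deposited them. Whole reads recovered from these values came to 13.4 to 26.9 M per library. The fit took in the 16164 genes that reached 0.5 TPM in 5 or more libraries and used log2(TPM + 0.5), on which changes of weakly expressed genes look smaller than they are. Differences are ablated minus control, with 95% intervals and p adjusted over all genes tested, from limma. Epithelial and smooth muscle markers were abundant in every library, at 12372 to 20808 and 6903 to 22994 summed TPM in ablated and 12676 to 15705 and 6683 to 10415 in control; these cells define the labelled tissue. Of 12 enteric neuron markers, 11 fell, with sums of 25.3 to 58.9 TPM in ablated and 165 to 351 TPM in control. In whole tissue, fewer cells of a type and less RNA per cell cannot be told apart. The shallowest library, ablated 1, also had the highest share of mitochondrial reads, 18.7%, where the other 11 lay between 3.56 and 10.4%.

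None of the 9 immediate early genes that could be tested passed an adjusted p of 0.05 in either direction. Over all genes tested 1.43% passed, 0.421% as higher and 1.01% as lower in ablated. None of the 9 had an unadjusted p under 0.05 either, against 11.8% of all genes, and none had groups that did not overlap, against 2.88%. Fold changes on the log2 scale were above 0 for 5 of them and below 0 for 4; their median was 0.02, where that of all genes tested was 0.03. The tenth, Fosl1, lay below the minimum level.

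**Figure D1:**
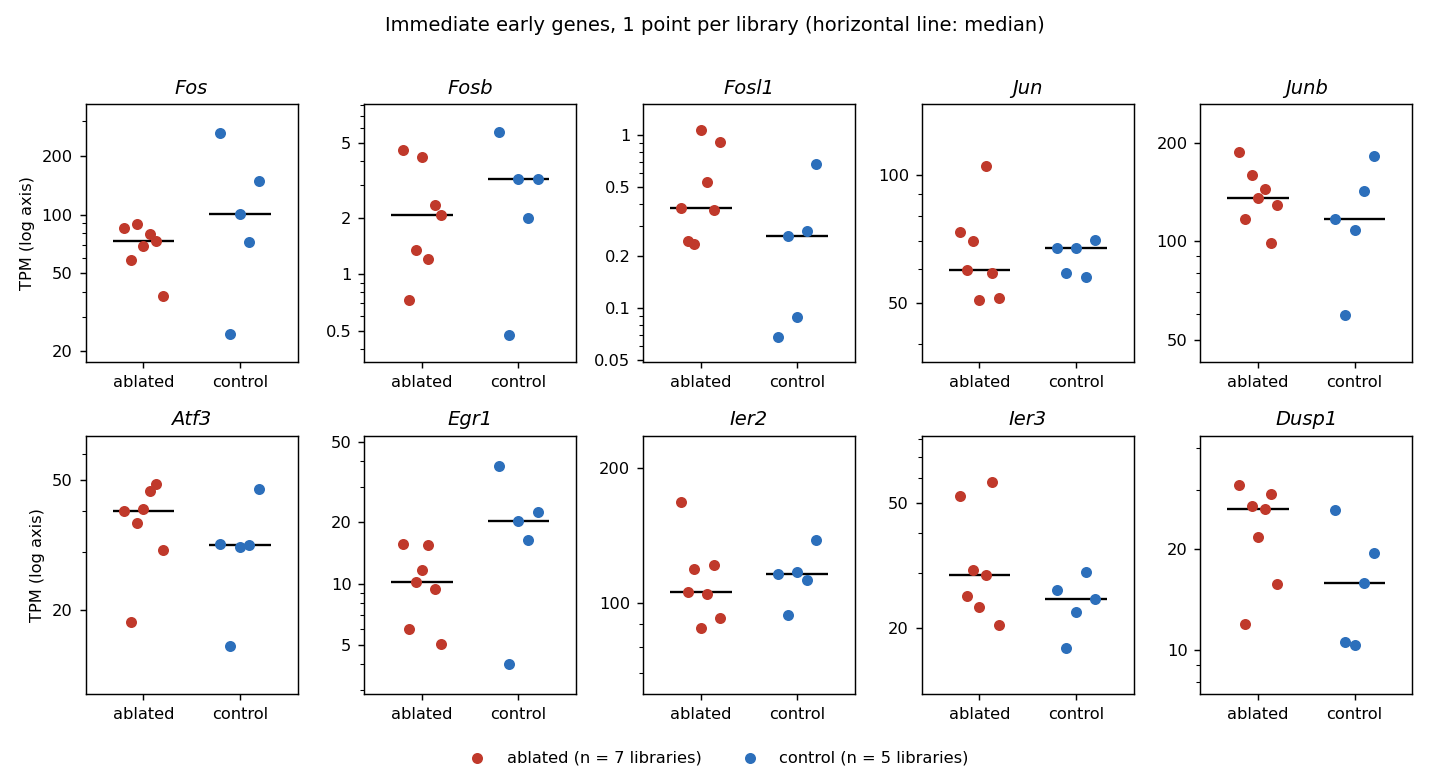
TPM of the 10 immediate early genes in 7 ablated and 5 control libraries, 1 point per library on log axes, with the median as a line. The groups overlap in all 10 panels, and the 5 control points of Fos reach from 24.5 to 261 TPM.

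Fos, the main partner of JUN in AP-1, had the widest range of TPM among controls. It stood at 85.2, 58.7, 89.2, 68.6, 79.2, 72.8 and 38.4 TPM in ablated 1 to 7, and at 261, 24.5, 100.3, 72.0 and 148 TPM in control 1 to 5. All 7 ablated libraries lay within the control range, and all 7 lay below the control median of 100.3. The means were 70.3 ± 17.4 in ablated and 121 ± 90.1 in control (SD). The log2 fold change was -0.44 (95% interval -1.41 to 0.52, adjusted p = 0.800). Single controls moved it: without control 1 it was -0.07, and without control 2 it was -0.92 (adjusted p = 0.353). With 688 to 4717 reads per library, counting error was small beside the spread between libraries.

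Fosb, a FOS relative whose short splice form persists in stimulated neurons, was far lower in level. Its lowest, median and highest values were 0.725, 2.07 and 4.58 TPM in ablated; in control it stood at 5.74, 0.474, 3.21, 1.98 and 3.21 TPM. The ranges covered each other almost wholly, and the log2 fold change was -0.20 (-1.17 to 0.78, adjusted p = 0.943), -0.59 without control 2 and 0.08 without control 1. Between 24 and 187 reads per library lay behind these values.

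Fosl1, which encodes FRA1, a FOS protein of migrating and wounded epithelium, was barely present. It ranged from 0.234 to 1.07 TPM in ablated, with a median of 0.378, and stood at 0.0679, 0.263, 0.0894, 0.280 and 0.678 TPM in control. Those values rest on 78 reads over all ablated and 29 over all control libraries, and on a single read in control 1. In a fit without the minimum level its log2 fold change was 0.41 (-0.10 to 0.91, adjusted p = 0.604). Fosl1 also overlaps Ccdc85b on the opposite strand over 2767 bases; the kit keeps strand, but the strand setting of the counting is not given in the sources used here. Fosl2, the fourth FOS gene and no member here, differed less between libraries, at 60.04 ± 6.06 TPM in ablated and 58.9 ± 5.36 TPM in control.

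Within the FOS family the balance of transcripts differed by library. Fos made up 38.5 to 58.0% of the summed TPM of Fos, Fosb, Fosl1 and Fosl2 in ablated, with a median of 54.1%, and 29.2 to 78.2% in control, with a median of 61.1%. Fosl2 supplied most of the rest, 40.9 to 58.5% in ablated and 20.03 to 69.9% in control. Fosb never exceeded 3.33%, nor Fosl1 0.911%. Fos and Fosl2 thus made up nearly all FOS family transcripts in every library.

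Egr1 had the lowest log2 fold change of the tested members. It stood at 15.7, 5.97, 10.1, 11.7, 15.5, 9.44 and 5.06 TPM in ablated 1 to 7, and at 38.1, 4.01, 20.4, 16.4 and 22.5 TPM in control 1 to 5. As with Fos, all 7 ablated libraries lay inside the control range and below the control median, here 20.4. Means were 10.5 ± 4.19 in ablated and 20.3 ± 12.3 in control, and the log2 fold change was -0.73 (-1.70 to 0.24, adjusted p = 0.605). Leaving out control 2, the lowest library, gave -1.20 (adjusted p = 0.165), and leaving out control 1, the highest, gave -0.43 (adjusted p = 0.880). The direction was negative in all 23 alternatives that can move the estimate.

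Jun and Junb spread less between libraries than Fos, Fosb and Egr1. Jun, the founding JUN family gene, had lowest, median and highest values of 50.6, 59.7 and 105 TPM in ablated, and stood at 67.4, 58.7, 67.3, 57.5 and 70.1 TPM in control. The log2 fold change was 0.02 (-0.33 to 0.37, adjusted p = 0.986), so that the interval runs from 0.795 to 1.296 times the control level. Its sign turned negative under both other scalings and with a weight per library, and 2 ablated libraries lay above and 2 below every control. Jun also overlaps the antisense gene Junos over 689 bases.

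Junb, the JUN protein that restrains JUN at many promoters, ran from 98.9 to 187 TPM in ablated, with a median of 135, and stood at 117, 59.6, 108, 142 and 182 TPM in control. Its log2 fold change was 0.25 (-0.26 to 0.76, adjusted p = 0.778). Control 2 was again the lowest of all 12 libraries, and without it the log2 fold change was 0.02; without control 5 it was 0.42. Jund, the constitutive JUN gene and no member here, took the largest part of the family, 45.4 to 59.0% of the summed Jun, Junb and Jund TPM in ablated and 49.9 to 54.6% in control. Junb took 26.1 to 36.0% in ablated and 24.97 to 35.5% in control, so its shares overlapped between the groups. Prdx2 overlaps the end of Junb on the opposite strand over 351 bases.

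Atf3, also a marker of injured neurons, stood at 18.4 to 48.5 TPM in ablated with a median of 39.99, and at 31.8, 15.6, 31.2, 31.5 and 46.9 TPM in control. Of the 7 ablated libraries 5 lay above the control median and 1 above the highest control. Its log2 fold change was 0.27 (-0.31 to 0.85, adjusted p = 0.802). It was 0.04 without control 2, 0.42 without ablated 2 and 0.43 without control 5.

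Ier2 showed the narrowest interval of the set. Its lowest, median and highest values were 87.9, 106 and 168 TPM in ablated, against 94.2, 116 and 138 TPM in control. The log2 fold change of -0.04 (-0.37 to 0.29, adjusted p = 0.967) bounds the ratio of ablated to control between 0.775 and 1.22. Its sign changed in 4 of 23 alternatives that can move the estimate.

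Ier3 and Dusp1 stood higher in ablated on average without passing. Ier3, which acts in cell survival under stress, was at 52.8, 25.3, 30.5, 23.3, 29.6, 58.3 and 20.4 TPM in ablated 1 to 7, and at 26.5, 17.3, 22.4, 30.1 and 24.7 TPM in control 1 to 5. Ablated 1 and ablated 6 lay far above every control and ablated 3 just above, and the other 4 ablated libraries lay within the control range. The log2 fold change was 0.41 (-0.14 to 0.97, adjusted p = 0.604), 0.27 without ablated 6. It was 0.71 (adjusted p = 0.0638) with an epithelial marker score as a covariate and 0.13 (adjusted p = 0.667) with a weight per library.

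Dusp1 was at 31.1, 11.96, 26.9, 21.8, 26.4, 29.2 and 15.7 TPM in ablated 1 to 7, and at 26.2, 10.6, 10.3, 15.9 and 19.5 TPM in control 1 to 5. It had the highest log2 fold change among the tested members, 0.50 (-0.10 to 1.11, adjusted p = 0.533), with 4 of 7 ablated libraries above every control. An exact two-sided permutation of the group labels, with 792 arrangements, gave Dusp1 an unadjusted p of 0.130, the lowest of the 9; the highest was 0.924. Its direction was positive in all 23 alternatives that can move the estimate, at 0.36 to 0.69. Dusp1 overlaps Ergic1 over 640 bases and Gm8225 over 956 bases on the opposite strand, with the same doubt over the strand setting as for Fosl1. The interval allows anything from 0.936 to 2.15 times the control level.

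**Figure D2:**
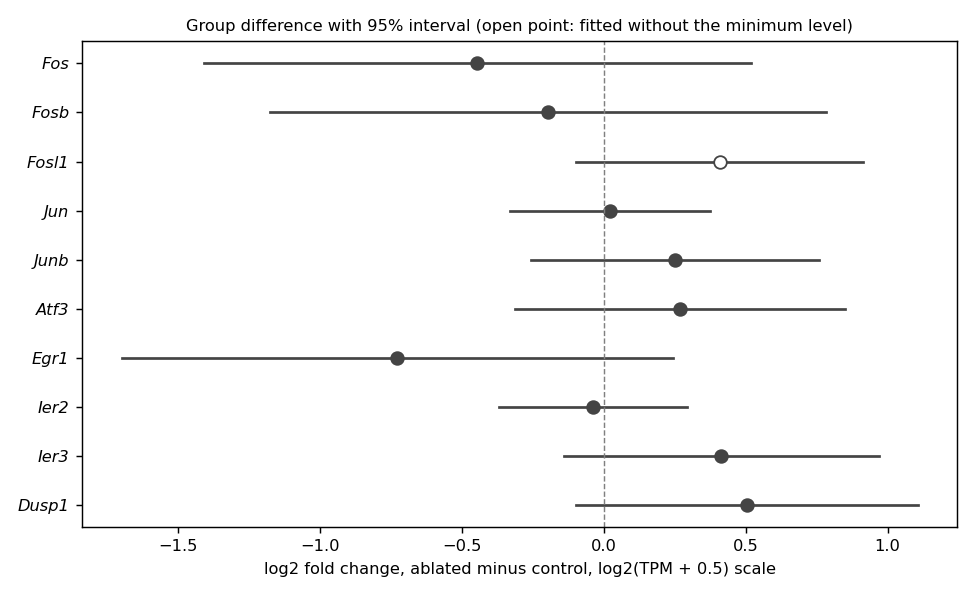
Log2 fold change of each gene, ablated minus control, with its 95% interval from limma; the open point of Fosl1 comes from a fit without the minimum level. All 10 intervals include 0, and those of Fos, Fosb and Egr1 are the widest.

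The members differed mainly in how far they spread within a group. The residual SD over both groups was 0.862 log2 units for Fos, 0.864 for Fosb and 0.865 for Egr1, each above the 90th percentile of all genes tested (0.668), at percentiles of 94.98, 95.02 and 95.1. Ier2 (0.270) and Jun (0.292) lay below the median gene (0.322). Junb, Ier3, Atf3 and Dusp1 lay between, at 0.441 to 0.525. Without control 2 the residual SD was 0.570 for Fos and 0.568 for Egr1, at percentiles of 83.5 and 83.4, and 0.696 for Fosb at 90.4. The order is a description of these libraries and was not tested.

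Where the spread sat also differed. Over all genes the SD was usually larger among ablated libraries, with a median of 0.368 in ablated and 0.198 in control, and 16.5% of genes had the larger SD in control. Of the 9 members, 6 had it in control, but 3 without control 2, against 15.8% of all genes; leaving out any other library gave 5 to 7. For Fos the SD was 0.414 in ablated and 1.27 in control, for Egr1 0.598 in ablated and 1.16 in control, and for Junb 0.297 in ablated and 0.596 in control. Without control 2, the control SD was 0.795 for Fos, 0.505 for Egr1, now below that in ablated, and 0.333 for Junb. Fosb (0.760 in ablated and 0.545 in control) and Atf3 (0.469 in ablated and 0.284 in control) also had the smaller SD in control once control 2 was left out. Jun went the other way, at 0.362 in ablated and 0.129 in control, and Ier3 likewise at 0.575 in ablated and 0.295 in control. The difference in spread was not tested.

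**Figure D3:**
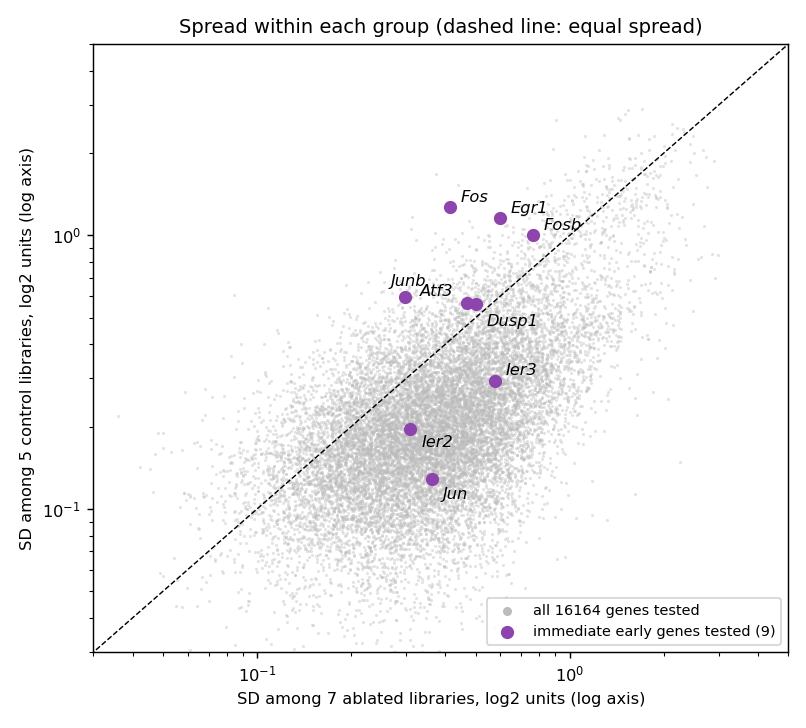
SD among the 7 ablated libraries (horizontal) against SD among the 5 control libraries (vertical) of log2(TPM + 0.5), on log axes, for all 16164 genes tested (grey) and the 9 members (purple). With all libraries, Fos, Egr1 and Junb lie above the line of equal spread and most genes under it; without control 2 Egr1 would lie under it, at 0.505 in control against 0.598 in ablated.

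The same libraries stood out for several members. Control 2 was the lowest of all 12 libraries for 6 of the 10 genes (Fos, Fosb, Junb, Egr1, Atf3 and Ier3) and among the lowest 3 for 8. Control 1 was the highest for Fos, Fosb and Egr1 but ranked 9 of 12 for Junb and 7 for Atf3. Ablated 1 was the highest for Junb, Ier2 and Dusp1, and among the highest 3 for 6 genes; this is also the shallowest library and the one with the most mitochondrial reads. Without ablated 1 the log2 fold change was -0.13 for Ier2, 0.30 for Ier3 and 0.42 for Dusp1. Control 5 was among the highest 3 for 7 genes and highest for none, and ablated 7 among the lowest 3 for 6. Control 2 had 22.5 M reads, the most of the controls, and 8.81% mitochondrial reads, where the other controls had 5.41 to 10.04%. With group means removed, Pearson r with read depth was negative for every tested member, from -0.600 (Ier2) to -0.0957 (Atf3). With the mitochondrial share of TPM it was positive for every one, from 0.0338 (Atf3) to 0.750 (Ier2). The value for Ier2 fell to 0.0136 without the 2 libraries farthest out in that share. None of these relations passed by r or by rank (permutation, lowest adjusted p = 0.497 and 0.339). Whether depth or RNA quality caused these levels was not tested.

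**Figure D4:**
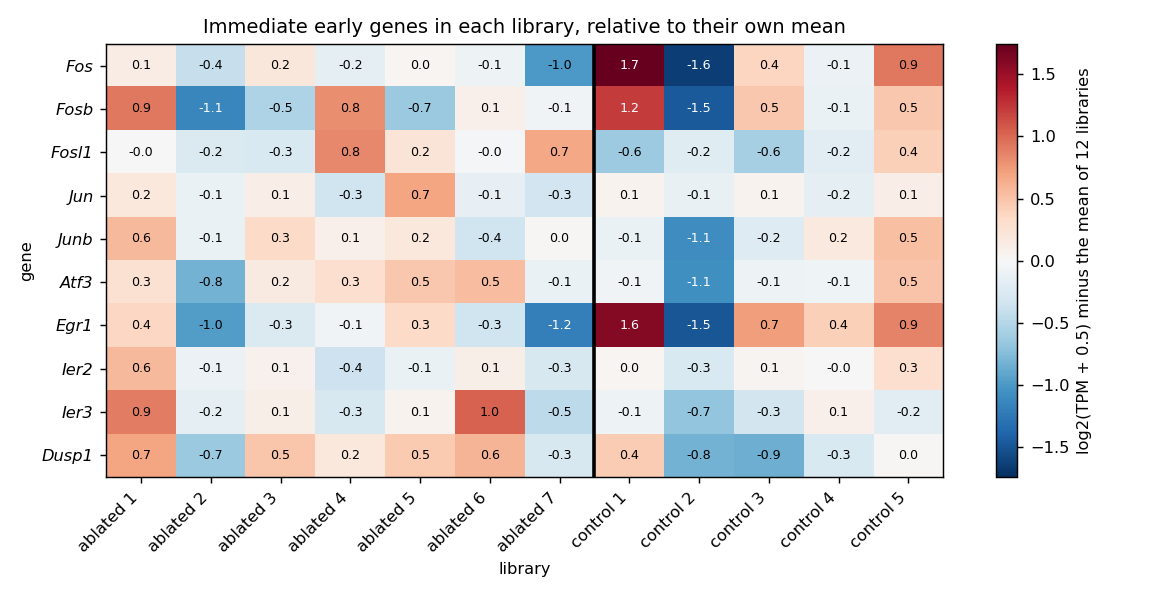
Log2(TPM + 0.5) of each gene in each library less its mean over the 12 libraries; ablated libraries stand left of the black line and control libraries right of it. Control 2 is blue in every row, with Fos 1.6 log2 units below its mean, and control 1 is dark red for Fos, Fosb and Egr1.

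Whether members were high in the same libraries was asked with the group means removed, over 12 libraries and 36 pairs of the 9 tested genes. Pearson r was positive in 35 of 36 pairs, with a median of 0.537, from -0.0416 (Fosb and Jun) to 0.933 (Fos and Egr1). No share over pairs of other genes stands beside this count, so it may not be particular to the members. The median r was 0.400 without control 2, 0.584 without control 1 and 0.490 in the 7 ablated libraries alone. Fos and Egr1 were the 1 pair that passed, with r = 0.933 (permutation within groups, p = 0.00012, adjusted p = 0.00432) and rho = 0.853 (adjusted p = 0.0428). By rank the call was lost without ablated 1 (permutation, adjusted p = 0.110) and without control 2 (0.0565), while by Pearson r it passed in both (0.00972 and 0.0162). Without the 2 libraries farthest out in Fos, r was 0.783. In the 7 ablated libraries alone it was 0.834 with an exact permutation p of 0.00913, which did not pass the adjustment over 36 pairs (adjusted p = 0.162).

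Further pairs had high r without passing. Ier2 and Ier3 had r = 0.778 and rho = 0.818 (permutation, adjusted p = 0.0624 and 0.0529), Atf3 and Dusp1 r = 0.745 (adjusted p = 0.0624), and Egr1 and Dusp1 r = 0.735 (adjusted p = 0.0624). Several of these rested on the extremes: leaving out the 2 farthest libraries gave r = 0.229 in place of 0.705 for Fos and Fosb, and -0.0164 in place of 0.665 for Fosb and Atf3. For Egr1 and Dusp1 it left 0.721. Fos and Jun, the classical AP-1 partners, had r = 0.406 (permutation p = 0.0329, adjusted p = 0.0847).

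The gene whose level followed the members most closely was Hbegf, a growth factor made as a membrane precursor. In species sensitive to diphtheria toxin that precursor is the toxin's receptor, and the gene is itself described as rapidly induced. Over 12 libraries with group means removed, its r with the mean of the 9 members was 0.950 and its rho 0.937, and with single members r ran from 0.502 (Jun) to 0.934 (Egr1). Hbegf stood at 15.5, 6.74, 9.58, 12.4, 14.8, 12.4 and 7.93 TPM in ablated 1 to 7, and at 15.6, 6.07, 11.9, 11.2 and 14.1 TPM in control 1 to 5. The lowest control was once more control 2, and the groups covered the same range (log2 fold change -0.04, adjusted p = 0.980). Other genes among the 10 most alike were Btg2 (r = 0.816) and Trib1 (r = 0.813), which themselves belong to the wider immediate early set, the mast cell protease Mcpt1 (0.879), Hsh2d (0.861), Pacsin3 (0.840), Tanc2 (0.832), Tbcel (0.825), Pola2 (0.821) and Cers5 (0.812). These were chosen for their r among many genes, so no p is given.

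The genes around the set were then read from the same fit. Of 45 other immediate early genes tested none passed. Among these 45, 34 had a positive log2 fold change, against 55.7% of all genes tested. Their median was 0.16, where all genes had 0.03. The 4 with the smallest p were Ccn2, a matrix signalling protein, Ptgs2, the inducible cyclooxygenase, Ier5 and Phlda1. Ccn2 stood at 240, 53.8, 52.0, 77.7, 28.6, 416 and 46.8 TPM in ablated 1 to 7 and at 67.6, 21.8, 20.2, 28.9 and 19.4 TPM in control 1 to 5. The 2 highest libraries, ablated 6 and ablated 1, were also the 2 highest for Ier3, and its log2 fold change was 1.57 (0.27 to 2.88, adjusted p = 0.296); it passed with the epithelial score as a covariate (adjusted p = 0.00936) and with library number as a block (0.0399), in 2 of 27 alternatives. Ptgs2 followed with 36.8 TPM in ablated 6 and 15.3 in ablated 1, 4.24 to 6.66 in the other 5 ablated libraries, and 1.64 to 6.10 in control (log2 fold change 1.22, adjusted p = 0.329). Ier5 averaged 22.2 ± 4.02 TPM in ablated and 17.8 ± 1.998 TPM in control (adjusted p = 0.397), and Phlda1 53.9 ± 18.9 TPM in ablated and 37.9 ± 3.47 TPM in control (adjusted p = 0.405, and 0.0149 to 0.9998 over its alternatives).

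None of the 19 other AP-1 and CRE-binding factors passed, with a median log2 fold change of 0.08. The smallest p belonged to Batf2, at 27.1 ± 3.89 TPM in ablated and 35.8 ± 4.78 TPM in control (log2 fold change -0.39, adjusted p = 0.161, and 0.0356 to 0.605 over its alternatives), and to the small MAF protein Maff, at 40.1 ± 9.61 and 27.2 ± 8.35 TPM in ablated and control (0.56, adjusted p = 0.223). Mafk and Creb5 had adjusted p of 0.443 and 0.492. Among 15 MAP kinase phosphatases and Sprouty-type inhibitors, the relatives of Dusp1 that restrain the same kinases, 13 had a positive log2 fold change, against 55.7% of all genes tested, and none passed. Dusp10 averaged 5.53 ± 0.880 TPM in ablated and 3.89 ± 0.766 TPM in control (adjusted p = 0.189). Every ablated library lay above every control, and Dusp10 was the 1 gene of the 15 without overlap. Of all genes tested, 2.88% had no overlap. Dusp8 averaged 4.65 ± 2.14 and 2.35 ± 0.333 TPM in ablated and control (adjusted p = 0.197, and 0.0219 to 0.784 over its alternatives), and Dusp16 and Dusp5 had adjusted p of 0.613 and 0.638.

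Of 28 MAP kinases, their upstream kinases and factors of the serum response, Mapk10 fell and none rose. The shares of all genes tested were 1.01% lower and 0.421% higher. Mapk10 encodes JNK3, the neuronal form of the kinase that phosphorylates JUN. Its lowest, median and highest values were 0.0484, 0.115 and 0.269 TPM in ablated, and it stood at 0.515, 1.41, 1.20, 0.608 and 0.665 TPM in control, so that every ablated library lay below every control. The log2 fold change was -1.07 (-1.49 to -0.66, adjusted p = 0.0111), a ratio of means of 0.158, from 473 reads in all. The enteric neuron markers moved the same way, as given above; their part in the fall of Mapk10 was not tested. It passed in 24 of 26 alternatives, and not with library number as a block (adjusted p = 0.205) or without control 1 and control 2 (0.0547).

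Of 29 genes listed as AP-1 or EGR1 targets, 2 rose and none fell. Of all genes tested, 0.421% rose and 1.01% fell. F3, tissue factor, which starts coagulation, stood at 139, 131, 96.2, 124, 47.7, 157 and 110 TPM in ablated 1 to 7 and at 53.0, 43.8, 40.7, 44.5 and 60.6 TPM in control 1 to 5. In 6 of 7 ablated libraries it lay above every control, with ablated 5 inside the control range, and the log2 fold change was 1.17 (0.64 to 1.70, adjusted p = 0.0316). Plaur, the urokinase receptor of migrating cells and leukocytes, stood at 18.6, 12.7, 20.3, 16.2, 11.7, 15.9 and 11.1 TPM in ablated 1 to 7 and at 7.80, 5.56, 5.13, 11.6 and 7.86 TPM in control 1 to 5. Here too 6 of 7 ablated libraries lay above every control (log2 fold change 0.98, 0.53 to 1.43, adjusted p = 0.0325). F3 did not pass in 12 of 27 alternatives (adjusted p up to 0.267, with library number as a block) nor Plaur in 9 (up to 0.296, without control 1 and control 2). F3 lost the call after quantile normalization (0.0688), with the smooth muscle score as a covariate (0.0544), and without ablated 2, 4, 6 or 7 or control 1, 2, 3 or 4, and Plaur without ablated 3, 4 or 6 or control 1, 2, 3 or 5. The other 27 of the list did not pass.

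**Figure D5:**
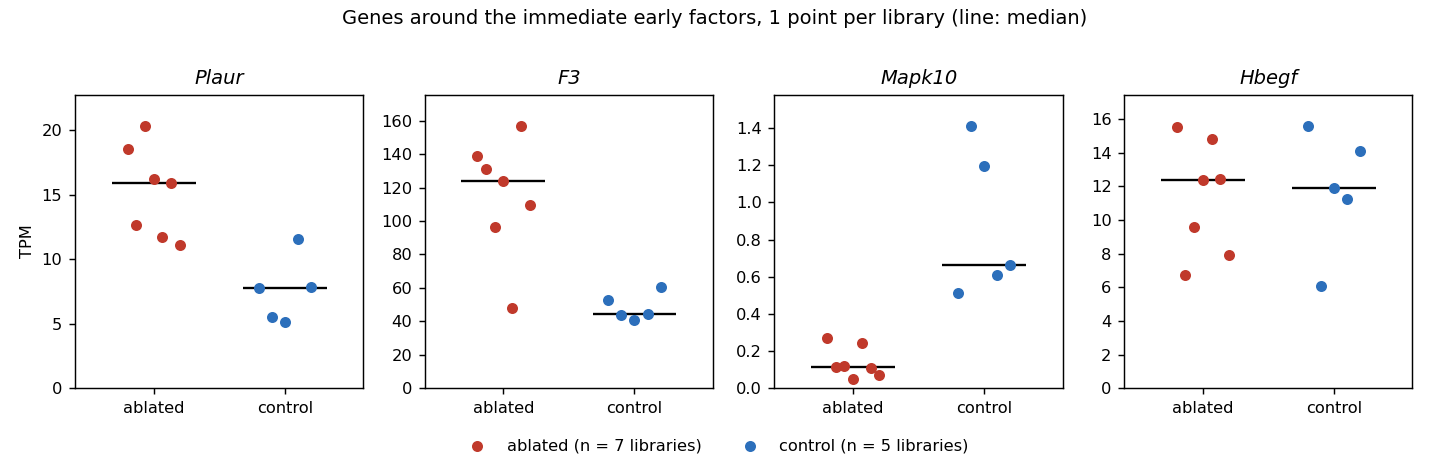
TPM of Plaur, F3, Mapk10 and Hbegf in 7 ablated and 5 control libraries, 1 point per library with the median as a line. For Plaur and F3, 6 of 7 ablated points lie above every control point; for Mapk10 all 7 lie below, and for Hbegf the groups overlap.

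Of 15 genes of the ATF4 stress response, which also induces Atf3, none passed and the median log2 fold change was 0.13. The smallest p were those of Vldlr (5.94 ± 1.03 TPM in ablated and 4.37 ± 0.316 TPM in control, adjusted p = 0.226) and Slc3a2 (adjusted p = 0.303), followed by Chac1 (0.476) and Sesn2 (0.596).

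Markers of other cells and measures of the libraries were set beside each member, in 117 relations with group means removed. None passed by Pearson r (lowest adjusted p = 0.0889, permutation), and 8 had an unadjusted p under 0.05. By rank, 2 passed: Ier3 with the skeletal muscle score (r = 0.777, rho = 0.853, permutation adjusted p for rho = 0.0421) and Fosb with the enteric glia score (r = -0.795, rho = -0.853, permutation adjusted p for rho = 0.0450). Without the 2 libraries farthest out in the score, r was 0.696 and -0.766. The direction was not particular to these genes. With the skeletal muscle score, r was positive for every tested member, from 0.0410 (Jun) to 0.777 (Ier3), with 0.716 for Ier2. With the enteric glia score, r was negative for every tested member but Jun (0.237), with -0.604 for Ier3 and -0.587 for Dusp1. The skeletal muscle markers summed to 38.5 to 135 TPM in ablated, highest in ablated 6, and 19.98 to 39.5 TPM in control. The glial markers summed to 29.5 to 103 TPM in ablated and 42.4 to 56.1 TPM in control. None of the 6 skeletal muscle or 8 glial markers tested was called between the groups, and no marker of either list was at 0 in all libraries. The part of these cells in the levels of the members was not tested.

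Macrophage and neutrophil markers, whose cells also use these genes, gave no call between the groups among the 9 and 7 tested. Macrophage sums were 261 to 1938 TPM in ablated and 584 to 987 TPM in control, and neutrophil sums 217 to 736 TPM in ablated and 361 to 720 TPM in control. Neither score passed with any of the 9 genes.

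Also in the authors' deposited table, made with edgeR, none of the 10 genes had a false discovery rate under 0.05, and the lowest was 0.469 for Egr1. The log2 fold changes in the authors' deposited table were -0.96 for Egr1, -0.80 for Fos, 0.50 for Ier3 and 0.49 for Dusp1. The authors' deposited table holds 57 genes called higher and 249 called lower at that rate.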

How the data were processed

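Per the labels' protocols, Trizol RNA was polyA-selected and prepared with a directional kit. According to the submitters' processing notes, bcl2fastq 2.17, HISAT and featureCounts were used with mm10. The authors deposited TPM per gene; the 12 per-sample files hold the same values as the series table. Their table also gives, per the file headers, edgeR log2 fold changes, an F score, p-values and false discovery rates.

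TPM are not counts, so the log2(TPM + 0.5) values entered a limma model of ablated minus control, with Benjamini-Hochberg adjustment. The model (version 3.58.1, R 4.3.3) used moderated variances with a trend. The fit was also run on simulated reads with the same dispersion for every gene and both groups. A spread as wide as that of Fos, or unequal between groups, was not simulated. Whole reads were recovered for 22840 of 22842 genes above 0, by searching lengths of 20 to 30000 bases; 99.99% of values came out whole, to a tolerance of 0.05 read. Correlations used 100000 permutations within groups in Python 3.11.15 with SciPy 1.17.1. Positions and overlapping genes came from GENCODE M21 on GRCm38.

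The members and gene lists were chosen with earlier results of these data known. Named are all members, the called genes of each list or else the 4 with the smallest p, and the 10 genes most like the members' mean with at least 1 TPM. The relations with markers, the family shares and ratios, the spread without each library, the pairs without control 1 or control 2, and the fit without both were added after the data were seen. Alternatives changed the constant, the minimum, the scaling, the variance model, the weights, the covariates, the block and the libraries.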

Additional observations from a re-analysis of the deposited data

Results flagged for a closer look

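In 20 groups of libraries (10 genes, ablated and control), 2 had a library far from the rest of its group, and chance gives about 1 in 20. Jun was at 105 TPM in ablated 5, where the other 6 ablated libraries lay between 50.6 and 73.3; without it the log2 fold change was -0.09. Ier2 was at 168 TPM in ablated 1, the library with the highest mitochondrial share, where the other 6 lay between 87.9 and 122; without it the log2 fold change was -0.13.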

How the results depend on the processing

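No member was called in any alternative. The 231 calls over all genes became 349 with no minimum, 1092 with a weight per library, 693 with the mitochondrial share and 1821 with the epithelium score as a covariate, and 97 without control 1 and control 2; leaving out 1 library gave 128 (without control 2; 137 without control 3) to 328. The split of higher against lower was 68 to 163 and, with weights, 654 to 438. With library number as a block (10 libraries) there were 89. The deviations of same-numbered libraries had r of 0.00935, 0.359, -0.269, 0.203 and 0.162 for numbers 1 to 5. The control most like the ablated library bore the same number for 2 and 4, and another number for 1, 3 and 5. Whether the numbers pair the libraries was not tested. The cause of these changes in the number of calls was not tested either. Pairs of members that passed numbered 1, 0 in the 7 ablated libraries alone, and 1 to 2 without ablated 1, control 1 or control 2, the libraries left out in turn here. Fos, Egr1, Ier3 and Dusp1 kept their direction in the 23 alternatives each that can move the estimate. Leaving out 1 library gave Fosb -0.59 to 0.080, Jun -0.093 to 0.081 and Ier2 -0.13 to 0.029. Jun was -0.00042 with median of ratios scaling, -0.039 after quantile normalization and -0.021 with weights. Ier2 was 0.12 with the epithelium score, and without control 1 and control 2 Junb was -0.049 and Atf3 -0.0027. Fosl1 rests on 1 to 22 reads a library, which limits it; the others rest on 24 or more.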

Other observations

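Several ratios were formed after the values had been seen and are given without a test. The ratio of Fos to Dusp1 TPM was 2.73, 4.90, 3.32, 3.15, 3.005, 2.49 and 2.45 in ablated 1 to 7, and 9.95, 2.32, 9.72, 4.54 and 7.58 in control 1 to 5. Control 1, 3 and 5 lay above all ablated libraries, control 4 lay within their range and control 2 below it. The ratio of summed Fos, Fosb, Fosl1 and Fosl2 to summed Jun, Junb and Jund TPM was 0.227 to 0.344 in ablated, with a median of 0.294, and 0.295 to 0.858 in control, with a median of 0.398. By this measure control 2, at 0.352, lay just above all ablated libraries and control 4, at 0.295, lay within their range. Fos to Ier2 was 0.413 to 0.781 in ablated and 0.261 to 2.25 in control. Fos to Jun was 0.748 to 1.36 in ablated and 0.418 to 3.87 in control. In both, the control range enclosed the ablated range. Egr1 to Dusp1 was 0.323 to 0.589 in ablated and 0.379 to 1.98 in control, and Egr1 to Fos 0.102 to 0.196 and 0.146 to 0.228.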
